A study of Mus musculus with 4 samples.

Results

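Lineage-negative, Sca-1-positive, c-Kit-positive (LSK) bone marrow cells, the fraction that contains hematopoietic stem cells and multipotent progenitors, were compared between the 2 arrays whose donor cells carried JAK2V617F and the 2 arrays whose donor cells did not. These are all 4 arrays of the series, 1 per genotype. The first side held the double mutant, with JAK2V617F and a TET2 knock-down (TET2KD) together, collected 13 weeks after transplantation, and JAK2V617F alone, collected at 16 weeks. The other side held TET2KD alone, collected at 10 weeks, and wild type (WT), collected at 16 weeks. All recipients had been lethally irradiated and had received E14.5 fetal liver cells of 1 genotype, and the background strain is given as C57B6. JAK2V617F came from a transgenic mouse; the promoter of the transgene and the construct of the knock-down are not given in the sources used here. Each genotype is described with 5 mice, and whether their cells were pooled onto the array is not given either. With 1 array per genotype there was no biological replicate, so every comparison below sets the same 4 arrays in order.

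JAK2 is the kinase that cytokine receptors without kinase activity of their own use to signal, among them the receptors for erythropoietin and granulocyte colony-stimulating factor. The V617F change makes it active without ligand and is the recurrent mutation of the myeloproliferative neoplasms. Active JAK2 phosphorylates STAT5 and STAT3, which enter the nucleus and switch on genes of growth and survival together with inhibitors, the SOCS proteins, that limit the same signal. TET2 oxidises 5-methylcytosine, and its loss often accompanies JAK2V617F in these diseases.

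Signals are given as relative signal, the processed signal divided by that array's 75th percentile, so that 1 is a bright probe on any of the arrays; a signal of 1 probe is not comparable with that of another. The 75th percentile was 143.5 in the double mutant, 130.3 in JAK2V617F, 119.8 in TET2KD and 127.7 in WT, and between 49.4% and 54.7% of spots were well above background. Spots repeated on an array had an SD of 0.154 to 0.172 on the log2 scale, which covers neither animals nor amplification. The gate markers Kit, Ly6a (Sca-1) and Cd34 were well above background on all 4 arrays. Of 14 markers of cells that the gate should lack, 7 were measured, and 6 of these were well above background on all 4 arrays. Xist, transcribed from the inactive X chromosome of female cells, had a relative signal of 0.195 in the double mutant and 3.95 in JAK2V617F, against 0.668 in TET2KD and 13.2 in WT. The sides overlapped for it, although each carrying array was below its partner without JAK2V617F.

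A gene was measured when a probe was well above background on at least 2 of the 4 arrays, which left 13739 genes. Both JAK2V617F-carrying arrays lay above both others for 2659 genes (19.4%) and below both others for 2500 (18.2%); for the remaining 8580 the sides overlapped. The distance between the nearest arrays of the 2 sides, called the gap here, had a median of 1.26-fold among the genes above and 1.22-fold among the genes below. It reached 2-fold for 351 genes above (2.55%) and for 335 below (2.44%), and 4-fold for 44 above and 47 below. In 83 of the 351 and 84 of the 335, the dimmer side was not well above background on either array. With normexp background correction in place of the processed signal, the 2-fold counts were 82 above and 78 below. At the 2-fold line the nearest genes showed no break: Htr2b stood just inside at 2.002-fold above and Neu1 just outside at 1.997-fold, with Amigo1 at 2.009-fold and Ppox at 1.998-fold on the lower side.

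Fitted across all genes with limma, as additive effects of JAK2V617F and TET2KD, the JAK2V617F term passed an adjusted p of 0.05 for 0 of 13739 genes (0%). The smallest adjusted p was 0.616, and 1066 genes had an unadjusted p under 0.05, 563 of them higher with JAK2V617F and 503 lower. An exact permutation test of 2 arrays against 2 cannot give a two-sided p below 0.333. The genes named below therefore describe the order and distance of these 4 arrays, and none of them had a limma adjusted p below 0.616.

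Gene lists differed widely in how their members were ordered. More members stood above than below among granulocyte and monocyte progenitor genes, G2 and mitosis genes, respiratory chain genes and nucleolar ribosome biogenesis genes, and more below than above among mast cell, basophil and eosinophil genes, MAPK feedback genes and stem cell genes. In the nucleolar and stem cell lists, 17 members each overlapped. The percentages in the plot of gene lists, and the counts of members given for each list below, are read against 19.4% above and 18.2% below over all genes.

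**Figure D1:**
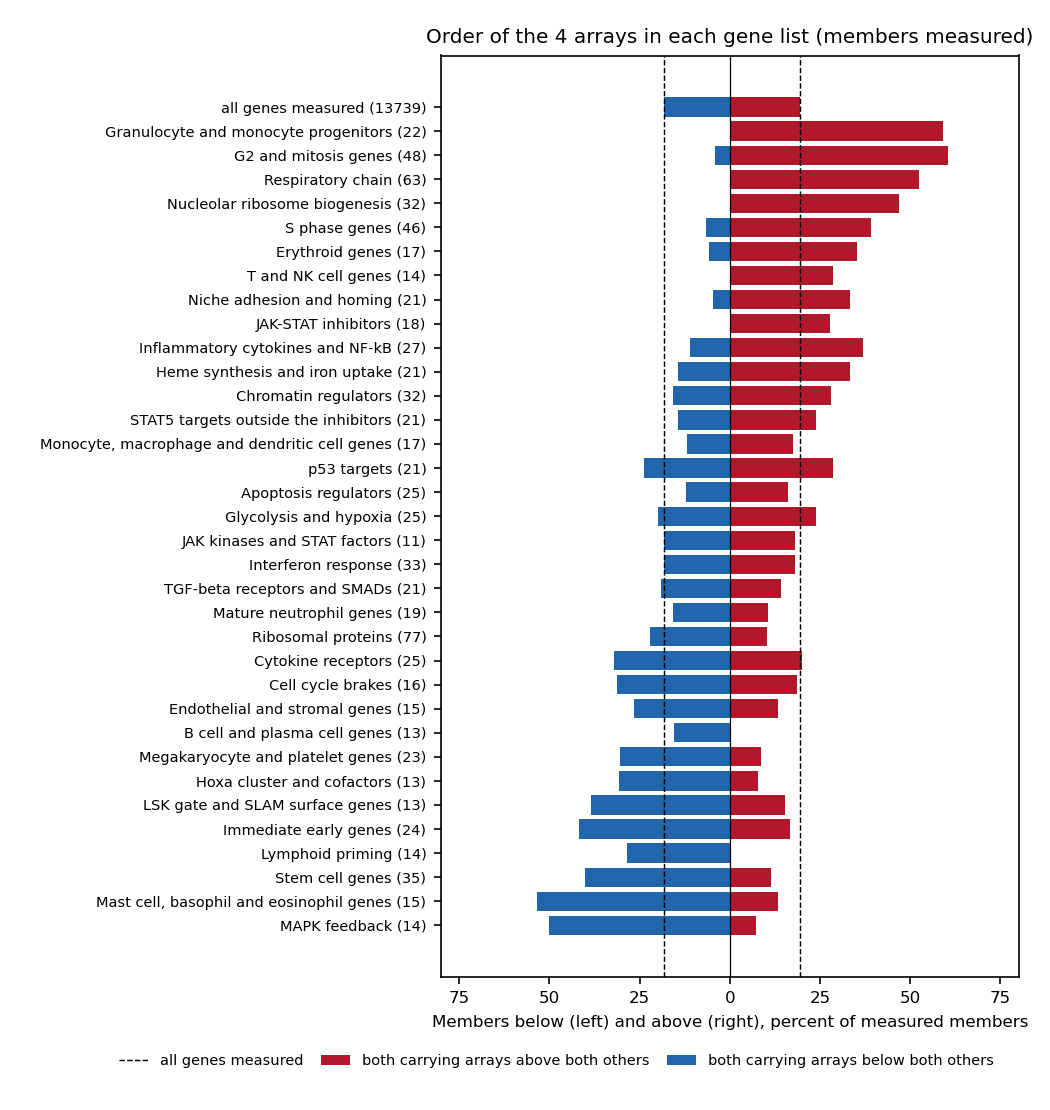
Members of each gene list (rows, with the number measured in brackets) for which both JAK2V617F-carrying arrays lay above both others (red, to the right) or below both others (blue, to the left), as percent of measured members (sex chromosome genes are not drawn); dashed lines mark all 13739 genes, 19.4% above and 18.2% below. Granulocyte and monocyte progenitors reach 59.1% above with 0 below, and mast cell, basophil and eosinophil genes reach 53.3% below.

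The JAK2V617F difference was available in 2 settings that share no array: JAK2V617F minus WT, without the knock-down, and double mutant minus TET2KD, with it. Across the 13739 genes the log2 differences of the 2 settings correlated weakly, with Pearson's r = 0.113 and Spearman's rho = 0.114, and 54.8% of genes had the same sign. Over the 6047 genes whose signal was at or above the 75th percentile, Pearson's r was 0.167. Genes are not independent replicates, and all of them share the scaling and depth of the same arrays. At a 2-fold difference, the setting without the knock-down had 2048 genes higher and 1993 lower, and the setting with it 2110 higher and 1932 lower. Of these, 538 were higher in both settings, 26.3% of the first list and 25.5% of the second, and 499 were lower in both, 25% and 25.8%. A further 331 genes were higher without the knock-down and at least 2-fold lower with it, 16.2% of those higher without it. The other way round were 347, 17.4% of those lower without it. These shares are read against the 2110 higher and 1932 lower with the knock-down among all 13739 genes. Most of the 2-fold differences in either setting were thus not found in the other.

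**Figure D2:**
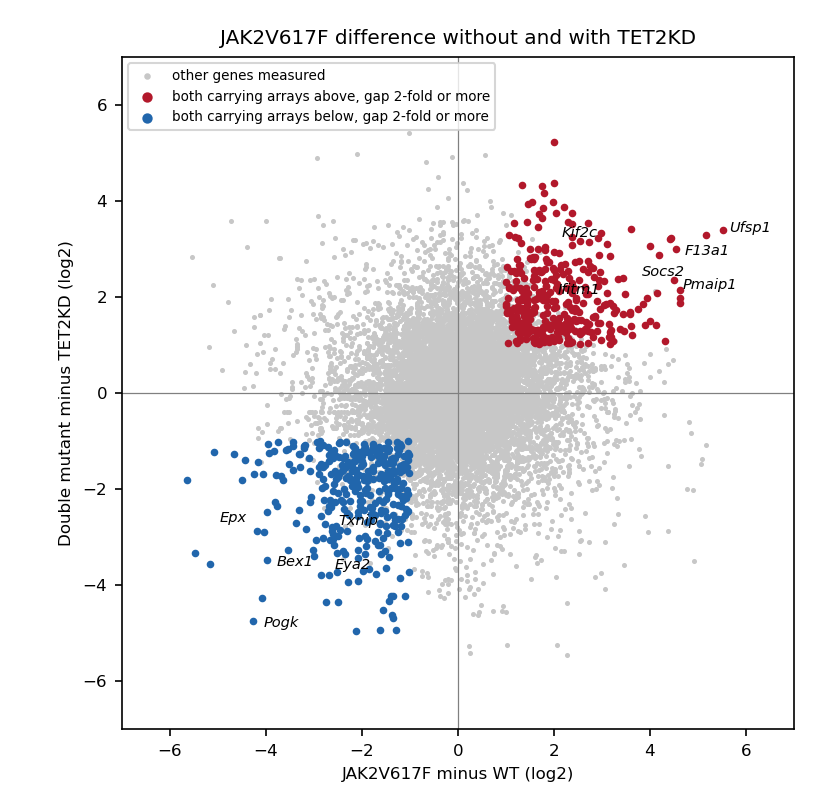
Log2 difference of each of 13739 measured genes without the knock-down (horizontal axis, JAK2V617F minus WT) and with it (vertical axis, double mutant minus TET2KD). Red and blue points are the 351 and 335 genes with a gap of at least 2-fold; the cloud as a whole is nearly round, with Pearson's r = 0.113.

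Probes of the same gene gave a check within the arrays. For 4578 pairs of probes at least 500 bases apart, the mean differences had a Spearman correlation of 0.15, against 0.775 for 518 pairs under 100 bases apart. Among 575 probes of distant pairs with a gap of at least 2-fold, the partner lay on the same side, by any gap, for 27.8%. It lay on the opposite side, by any gap, for 12.3%. Over all genes, any gap was found above for 19.4% and below for 18.2%. Most genes (9947) had a single measured probe, so the value of a gene named below often describes 1 stretch of its transcript.

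Socs2 had the widest gap of the JAK-STAT pathway. It encodes a STAT5-induced inhibitor of cytokine receptor signalling. Its relative signal was 1.34 in the double mutant and 2.26 in JAK2V617F, against 0.184 in TET2KD and a floor of 0.124 in WT. Both carrying arrays were high and the other arrays were at or near background, with a gap of at least 7.27-fold (limma adjusted p = 0.616). The log2 difference of 3.52 depends on the floor: it was 4.67 for Socs2 without the floor and 1.81 with normexp. The 3 measured probes had gaps of at least 5.97-, 9.27- and at least 6.95-fold and lay within 500 bases of each other on chromosome 10; TET2KD was well above background on 1 of them and WT on none. The probe with the 5.97-fold gap (chr10:94875468-94875527, mm9, minus strand) is shown, since this 60-base stretch is part of what the arrays read for the inhibitor with the widest gap.
Socs2: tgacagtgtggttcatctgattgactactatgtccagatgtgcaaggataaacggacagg

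The other inhibitors differed less. Of 18 measured members of that list, 5 lay above (27.8%) and 0 below, against 19.4% and 18.2% over all genes. Socs2 was the only one with a gap of 2-fold. Socs3, which blocks JAK2 and the gp130 receptors, had 3.62 and 3.66 in the double mutant and JAK2V617F, against 0.809 in TET2KD and 3.11 in WT, so that its gap of 1.17-fold was set by WT. Ptprc, the CD45 phosphatase, had a gap of 1.16-fold, Socs4 1.08-fold and the ubiquitin ligase Cbl 1.04-fold. Cish, a further STAT5-induced inhibitor, had 0.943 in the double mutant and 2.65 in JAK2V617F, against 0.5997 in TET2KD and 2.06 in WT. Its sides overlapped, although each carrying array was above its partner without JAK2V617F. Sh2b3, Ptpn1, Ptpn2, Ptpn6, Ptpn11, Socs6, Socs7, Cblb and all 4 PIAS genes overlapped as well. The median log2 difference of the list was 0.33, against -0.016 over all genes, and it was 0.00 without the TET2KD array. It was -0.038 for JAK2V617F minus WT and 0.433 for double mutant minus TET2KD.

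Of the 11 kinases and STAT factors themselves, 2 were above and 2 below. These shares, 18.2% each way, were close to the 19.4% above and 18.2% below over all genes. Jak2, on 1 probe, had 1.14 and 1.03 in the double mutant and JAK2V617F, against 1.18 in TET2KD and 1.08 in WT; the values overlap, and whether the probe reads the transgene is not known. Stat3 was above (6.72 and 5.33 against 4.40 and 3.03, a gap of 1.21-fold), as was Tyk2 at 1.09-fold. Stat2, the interferon signal transducer, was below with 0.962 in the double mutant and 1.60 in JAK2V617F, against 2.20 in TET2KD and 2.67 in WT, a gap of 1.38-fold, and Jak1 was below at 1.16-fold. Stat5a, Stat5b, Stat4, Stat6 and Jak3 overlapped. The targeted gene of the knock-down, Tet2, overlapped on both measured probes. On the probe with the larger difference it had 1.35 in the double mutant and 1.63 in JAK2V617F, against 0.609 in TET2KD and 2.23 in WT. The other probe had 2.57 in the double mutant and 4.40 in JAK2V617F, against 2.35 in TET2KD and 4.17 in WT.

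**Figure D3:**
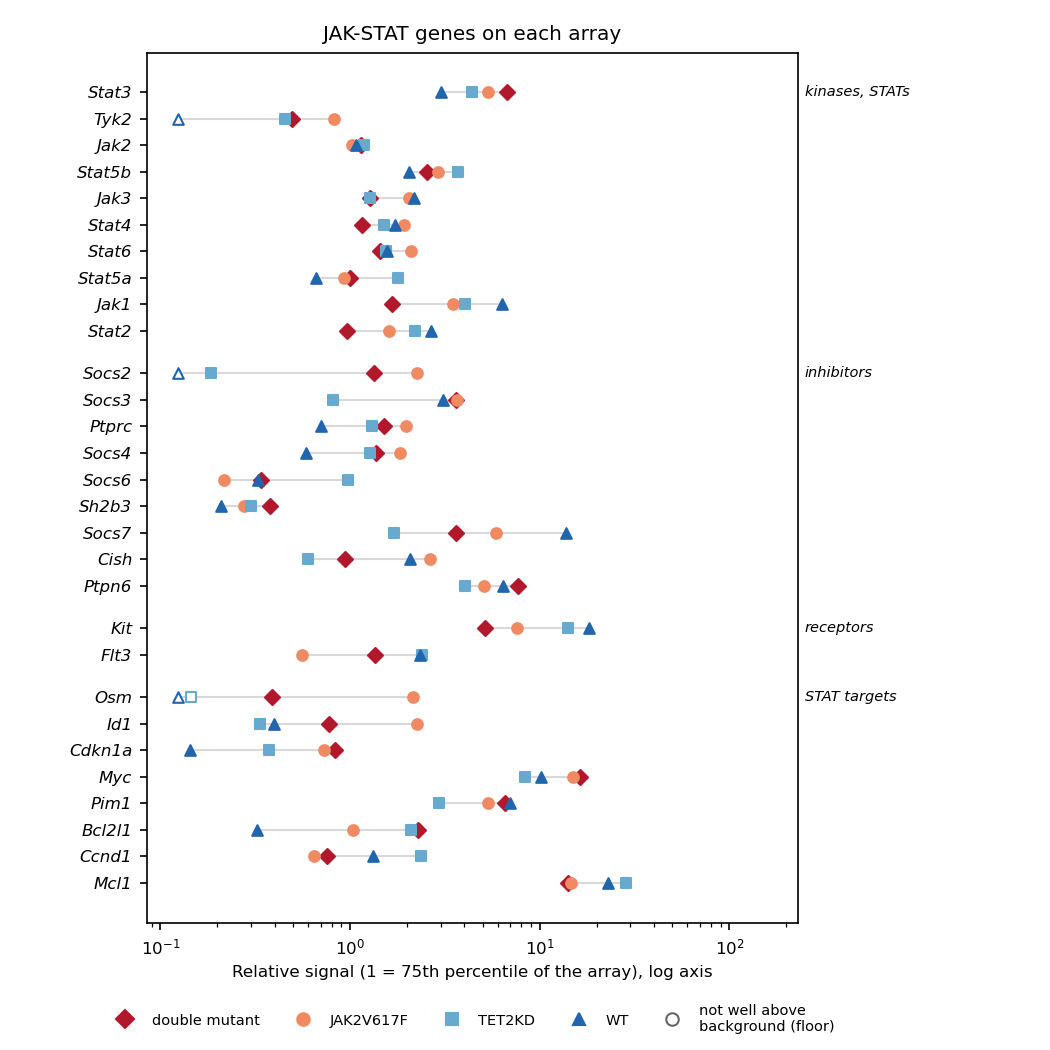
Relative signal of JAK-STAT pathway genes on each array (horizontal log axis, 1 = the array's 75th percentile), with the double mutant as diamonds, JAK2V617F as circles, TET2KD as squares and WT as triangles; open symbols are at the floor, not well above background. Socs2 shows both carrying arrays far to the right and Kit both to the left, while Jak2 has all 4 arrays between 1.03 and 1.18.

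Cytokine receptors had members on both sides. Kit, the stem cell factor receptor used in the gate, had 5.17 and 7.61 in the double mutant and JAK2V617F, against 14.1 in TET2KD and 18.2 in WT, a gap of 1.85-fold. Flt3, the receptor of lymphoid-primed progenitors, had 1.35 and 0.560, against 2.40 in TET2KD and 2.33 in WT, with a gap of 1.72-fold. Among all 25 measured cytokine receptors 8 were below and 5 above (32% and 20%, against 18.2% and 19.4% over all genes). Il18r1, the interleukin-18 receptor, was above by at least 2.24-fold, and Csf2rb, the shared beta chain for interleukin-3, interleukin-5 and GM-CSF, at 1.48-fold.

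Of the STAT5 targets other than the inhibitors, 5 of 21 were above and 3 below (23.8% and 14.3%). These shares were near the 19.4% and 18.2% over all genes. Osm (oncostatin M, a cytokine of the interleukin-6 family) was well above background only with JAK2V617F: 0.388 in the double mutant and 2.16 in JAK2V617F, against floors of 0.145 in TET2KD and 0.124 in WT, at least 6.83-fold higher. The gap of Osm was 2.68-fold. Id1, an inhibitor of basic helix-loop-helix factors, had a gap of 1.95-fold, Cdkn1a, the p21 cell cycle inhibitor, at least 1.95-fold, and Myc 1.47-fold. Lower were the cyclin Ccnd1 (1.75-fold), the survival gene Mcl1 (1.57-fold) and the adaptor Lcp2 (1.51-fold). Pim1, Pim2, Pim3, Bcl2l1, Bcl6 and Ccnd2 overlapped. The median of the list was 0.11, ran from -0.103 without the WT array to 0.274 without the JAK2V617F array, and so had no settled side.

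Genes of granulocyte and monocyte progenitors had the highest median of the 35 lists. Of 22 measured members 13 were above and 0 below, 6 by at least 2-fold, and the median log2 difference was 1.19. F13a1, the factor XIII A chain made by monocytes, had 3.93 in the double mutant and 2.90 in JAK2V617F, against 0.492 in TET2KD and a floor of 0.124 in WT, a gap of at least 5.90-fold. Hp, haptoglobin, had 12.8 and 16.0, against 3.06 in TET2KD and 1.86 in WT. Both genes were high on both carrying arrays, with no overlap. The granule proteases followed: Ctsg, cathepsin G, had 74.4 and 60.2 in the double mutant and JAK2V617F, against 22.6 in TET2KD and 6.14 in WT. Prtn3, proteinase 3, had 12.7 and 12.6, against 5.41 in TET2KD and 2.16 in WT. TET2KD lay between WT and the carrying arrays for these 4 genes. Ms4a3, a membrane protein of granulocyte-monocyte progenitors, had a gap of 2.38-fold, Irf8, a factor of the monocyte and dendritic lineages, 2.05-fold, and Mpo, myeloperoxidase, 1.74-fold. Elane, neutrophil elastase, overlapped because TET2KD stood highest: 9.22 and 7.77, against 10.2 in TET2KD and 1.62 in WT. Calr, the chaperone whose mutant form also drives myeloproliferative neoplasms, was above at 1.37-fold.

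The progenitor list's median was 0.862 for JAK2V617F minus WT and 1.198 for double mutant minus TET2KD. Genes of mature neutrophils did not share the order: 2 of 19 were above and 3 below (10.5% and 15.8%, against 19.4% and 18.2% over all genes). Cybb, the phagocyte oxidase subunit, was above at 2.99-fold. Monocyte, macrophage and dendritic cell genes had 3 of 17 above and 2 below (17.6% and 11.8%). Those above included the chemokine receptors Ccr2 (at least 4.88-fold higher, gap 3.38-fold) and Cx3cr1 (at least 5.65-fold higher, gap 2.335-fold). In sorted bulk cells, a different share of a cell type and a different amount of RNA per cell cannot be told apart.

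Genes of G2 and mitosis lay above more often than below. Of 48 measured members of that list 29 were above, 17 overlapped and 2 were below, 5 by at least 2-fold, and the median log2 difference was 0.83. Kif2c, a kinesin that corrects chromosome attachments, had 1.25 in the double mutant and 1.08 in JAK2V617F, against floors of 0.145 in TET2KD and 0.125 in WT, at least 8.64-fold higher, with 2 probes on the same side. Cdc25c, the phosphatase that activates CDK1, was at least 6.05-fold higher (gap 5.705-fold), and the spindle checkpoint kinase Ttk at least 3.08-fold (gap 2.51-fold). Kif11, the spindle motor, was measured on every array, with 3.74 and 3.17 in the double mutant and JAK2V617F, against 1.29 in TET2KD and 1.35 in WT. Kif4, a chromosome-bound kinesin, had a gap of at least 2.75-fold, with TET2KD not well above background. Smaller gaps were seen for Aurka (1.92-fold), Ube2c (1.67-fold), Mki67, the Ki-67 antigen (1.51-fold), Top2a (1.54-fold), Ccnb1 (1.53-fold) and Cdk1 (1.53-fold). The members below were Kif20a at 1.503-fold and Ndc80 at 1.34-fold.

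S phase genes had 18 of 46 above and 3 below, and 3 of those above passed 2-fold. Mcm10, a replication initiation factor, had 0.981 and 1.13 in the double mutant and JAK2V617F, against 0.171 in TET2KD, where it was not well above background, and 0.339 in WT. Pole2, a subunit of DNA polymerase epsilon, had a gap of 2.03-fold. Ccne1, cyclin E1, had 2.46-fold as the mean of 2 probes that disagreed: the probe well above background on all 4 arrays overlapped, and on that probe alone the log2 difference of Ccne1 was 0.155, against 1.75 for the mean. The median of 0.247 was small and moved with the arrays, reaching 0.507 without WT. Cell cycle brakes had 3 of 16 above and 5 below (18.8% and 31.2%, against 19.4% and 18.2% over all genes).

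S phase genes are known targets of E2F factors. The letters TTTCGCGC or TTTGGCGC, on either strand and counting overlapping matches, stood in 11 of 44 promoters of the S phase list (25%), against 1.4% of the 13668 promoters of all measured genes and 0.813% of all 32851 promoters in the RefSeq table (GRCm38.p6), each running from 250 bases before the start to 50 after. Of the 11 genes with a match, 6 were above, with gaps of 1.02- to 2.03-fold, 5 overlapped and 0 were below. The 250 bases before the start are shown for Orc1, of the origin recognition complex (gap 1.46-fold, chr4:108579204-108579453, plus strand), and Mcm6, of the replicative helicase (gap 1.29-fold, chr1:128359706-128359955, minus strand), which lay above and carry matches there; capitals mark the matches. In Mcm6, 2 of 3 matches overlap.
Orc1: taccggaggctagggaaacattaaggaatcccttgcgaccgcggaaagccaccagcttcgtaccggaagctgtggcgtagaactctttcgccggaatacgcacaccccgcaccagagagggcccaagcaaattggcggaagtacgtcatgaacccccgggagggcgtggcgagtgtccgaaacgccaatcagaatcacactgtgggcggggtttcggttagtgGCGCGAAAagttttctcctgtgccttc
Mcm6: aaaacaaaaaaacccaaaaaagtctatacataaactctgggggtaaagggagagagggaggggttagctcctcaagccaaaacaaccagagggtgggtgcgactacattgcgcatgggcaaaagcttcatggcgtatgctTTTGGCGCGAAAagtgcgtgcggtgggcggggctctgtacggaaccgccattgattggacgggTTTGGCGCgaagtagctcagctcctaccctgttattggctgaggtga

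Among promoters of the genes at least 2-fold above, 8 of 317 held the E2F letters (2.52%), against 1 of 361 among those 2-fold below (0.277%) and 1.4% for all measured genes; these are few promoters. The STAT letters TTCNNNGAA stood in 7.57% of promoters of the genes above and 6.09% of those below, against 7.15% for all measured genes, so these shares were close to each other. The C/EBP letters TTGCGCAA were in 0 of 317 promoters of the genes above and 1 of 361 of those below, against 0.263% for all measured genes, too rare for a comparison. A match of letters does not show that a factor binds.

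Eosinophil granule genes stood lower with JAK2V617F, and their list had the lowest median of the 35. Of 15 measured mast cell, basophil and eosinophil genes 8 were below, all 8 by at least 2-fold, and 2 were above; the median log2 difference was -1.87. Epx, eosinophil peroxidase, had 3.003 in the double mutant and 1.41 in JAK2V617F, against 22.0 in TET2KD and 25.5 in WT. The sides were 7.33-fold apart. Prg2, major basic protein, had 49.0 and 22.6 in the double mutant and JAK2V617F, against 142.9 in TET2KD and 168.7 in WT. Its relative Prg3 had 3.47 and 2.94, against 9.78 in TET2KD and 13.9 in WT. JAK2V617F stood lowest and WT highest for each of these. The eosinophil-associated ribonucleases had gaps of 3.51-fold (Ear2), 3.24-fold (Ear10), 2.73-fold (Ear1) and 2.42-fold (Ear6); they are close relatives, and whether their probes read each other's transcripts was not tested. The signals of these 7 genes summed to 71.6 in the double mutant and 33.0 in JAK2V617F, against 222.5 in TET2KD and 314.3 in WT. Il5ra, the interleukin-5 receptor that marks the eosinophil lineage, did not share the order: it had 0.960 and 0.999 in the double mutant and JAK2V617F, against 0.842 in TET2KD and 0.878 in WT. The probes of Epx (chr11:87678288-87678347, mm9, minus strand) and Prg3 (chromosome 2, mm9, plus strand, across a splice junction between 84831668 and 84833177) are shown as the stretches behind these differences.
Epx: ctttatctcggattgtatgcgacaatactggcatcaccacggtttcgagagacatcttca
Prg3: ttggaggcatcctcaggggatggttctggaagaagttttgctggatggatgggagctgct

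The same list holds mast cell and basophil genes, which split. Cpa3, the mast cell carboxypeptidase, was not well above background on either carrying array, with floors of 0.109 and 0.108 in the double mutant and JAK2V617F, against 0.919 in TET2KD and 0.830 in WT, at least 8.05-fold lower. Mcpt8, a basophil protease, went the other way: 0.759 in the double mutant and 0.325 in JAK2V617F, against floors of 0.145 and 0.124, at least 3.70-fold higher. Fcer1a, Ms4a2, Cma1, Mcpt1, Mcpt4, Tpsab1 and Ccr3, which define mast cells, basophils or eosinophils, were not measured. Without any single array the list median stayed between -2.28 and -1.61.

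**Figure D4:**
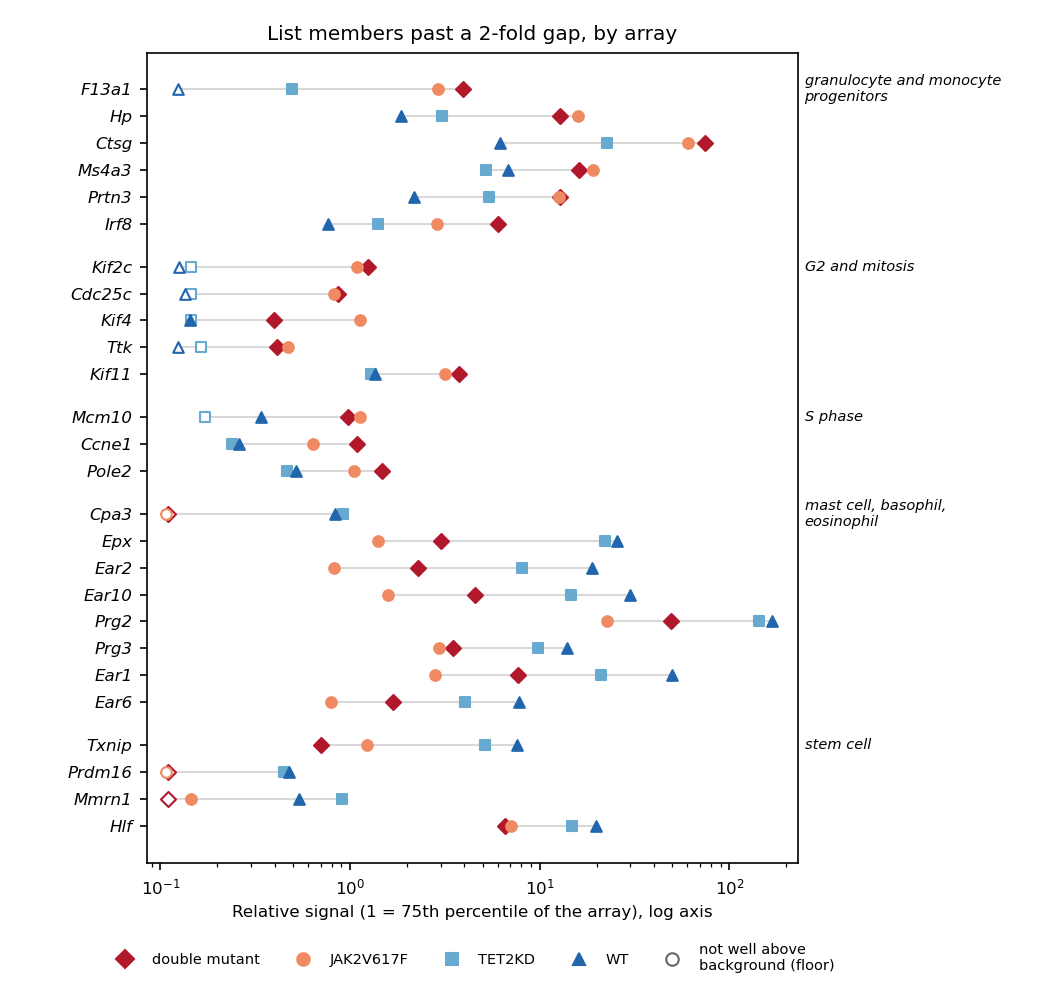
Relative signal on each array (horizontal log axis) for members of 5 gene lists with a gap of at least 2-fold on the side where the list has more such members (Ifitm1 and Mcpt8, on the other side of their lists, are not drawn); diamonds are the double mutant, circles JAK2V617F, squares TET2KD and triangles WT, and open symbols are at the floor. Carrying arrays lie to the right for progenitor and cell cycle genes, such as Ctsg at 74.4 and 60.2 against 22.6 and 6.14, and to the left for the eosinophil and stem cell genes drawn, such as Epx at 3.003 and 1.41 against 22.0 and 25.5.

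Stem cell genes were more often lower than higher with JAK2V617F, with 14 of 35 measured members below and 4 above. Txnip, which binds thioredoxin and restrains glucose uptake and the cell cycle, had 0.699 in the double mutant and 1.24 in JAK2V617F, against 5.12 in TET2KD and 7.56 in WT. The gap was 4.15-fold, and 2 probes more than 500 bases apart had 4.03- and 4.15-fold. Its probe at chr3:96364206-96364265 (mm9, plus strand) had 1.17 and 3.04, against 12.6 in TET2KD and 12.2 in WT.
Txnip: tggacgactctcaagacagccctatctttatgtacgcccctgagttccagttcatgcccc
Hlf, a transcription factor of stem cells, had 6.55 and 7.03 in the double mutant and JAK2V617F, against 14.8 in TET2KD and 19.8 in WT, a gap of 2.10-fold. Prdm16, which maintains stem cells, was not well above background on either carrying array and was at least 4.26-fold lower. Mmrn1, multimerin 1, had a gap of 3.72-fold with the double mutant at the floor. Angpt1, angiopoietin 1, was below at 1.56-fold and Mecom at 1.41-fold, while Gata2, Runx1, Procr and Ly6a overlapped. Ifitm1, an interferon-induced membrane protein expressed in stem cells, stood out on the other side, with 54.8 and 58.9 in the double mutant and JAK2V617F, against 14.5 in TET2KD and 15.2 in WT. Its 2 probes, a base apart, had gaps of 3.63- and 3.57-fold. The list's median of -0.62 was -0.26 without the double mutant. It was -0.203 for JAK2V617F minus WT and -0.678 for double mutant minus TET2KD; no test of that difference was possible.

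Feedback genes of the MAP kinase pathway, which are induced by ERK and damp it, were lower with JAK2V617F in 7 of 14 cases and higher in 1. Dusp6, an ERK phosphatase, had 6.59 in the double mutant and 10.69 in JAK2V617F, against 21.2 in TET2KD and 29.6 in WT. Etv5, an ERK-induced ETS factor, had 2.21 and 2.18, against 4.36 in TET2KD and 4.72 in WT. Their gaps were 1.98- and 1.97-fold. Spry1, Sprouty 1, was lower by 2.19-fold, and Dusp4, a nuclear MAP kinase phosphatase, by 2.33-fold with the double mutant at the floor. The median of -0.823 was -0.301 without WT. Immediate early genes had 10 of 24 below and 4 above. The AP-1 gene Jun had 32.9 and 39.2 in the double mutant and JAK2V617F, against 74.99 in TET2KD and 62.6 in WT, and Fos, Fosb, Jund, Egr1, Klf2 and Klf6 were below by 1.32- to 1.58-fold. Nr4a3 (3.96-fold), Egr3 (2.93-fold) and Ier5 (2.47-fold) were above. The list's median of -0.478 was -0.17 without TET2KD. It was 0.148 for JAK2V617F minus WT and -0.71 for double mutant minus TET2KD, so the 2 settings had opposite signs.

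Genes of mitochondrial respiration and of ribosome assembly had members above or overlapping and none below. Of 63 respiratory chain genes 33 were above and 0 below, with a median log2 difference of 0.426 that ran from 0.231 without TET2KD to 0.691 without WT. Ndufb8, of complex I, had 21.8 in the double mutant and 31.1 in JAK2V617F, against 10.4 in TET2KD and 9.27 in WT, and was the 1 member past 2-fold. Ndufb6, Atp5d, Ndufa10 and Ndufb5 had gaps of 1.95- to 1.98-fold, and Atp5b, the catalytic beta subunit of ATP synthase, 1.504-fold. Nucleolar genes of ribosome biogenesis had 15 of 32 above and 0 below (median 0.404, and 0.612 without WT). Nop16 was above by 3.28-fold and Polr1b, a subunit of RNA polymerase I, by 2.24-fold, both with WT at the floor. Ribosomal proteins did not follow, with 8 of 77 above and 17 below and 0 past 2-fold. Glycolysis genes split: Pgam1 (1.80-fold), Pgk1 (1.60-fold) and Gapdh (1.58-fold, all 8 probes on the same side) were above, and the glucose transporter Slc2a3 (1.84-fold) and the mitophagy receptor Bnip3 (1.60-fold) below.

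Inflammatory genes and interferon genes had members on both sides. Of 27 measured cytokine and NF-kB genes 10 were above and 3 below. Cxcl10, a chemokine induced by interferon, had 2.12 in the double mutant and 1.87 in JAK2V617F, against 0.465 in TET2KD and 0.388 in WT. Its 2 probes, more than 500 bases apart, had gaps of 2.13- and 5.21-fold. Cxcl1, a neutrophil chemokine, was at least 6.51-fold higher, and Il18 at least 4.98-fold lower. Among 33 interferon response genes 6 were above and 6 below, 18.2% each way, against 19.4% and 18.2% over all genes. Oas3 (gap 3.50-fold), Gbp2 (gap 3.33-fold) and Ifit3 (gap 2.66-fold, at least 5.38-fold lower by the means) were among those below. Tgfb1, transforming growth factor beta 1, a cytokine linked to marrow fibrosis, had 2.59 and 2.26 in the double mutant and JAK2V617F, against 0.951 in TET2KD and 0.828 in WT, a gap of 2.38-fold. Dnmt1, the maintenance DNA methyltransferase, was above by 2.19-fold.

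Ranked by gap among genes with every probe well above background on every array and a 2-fold gap with normexp too, the widest separations above began with these genes. Ufsp1, a UFM1-specific protease, had 5.79 in the double mutant and 7.74 in JAK2V617F, against 0.551 in TET2KD and 0.169 in WT, a gap of 10.5-fold. Got1, the cytosolic aspartate aminotransferase, had 2.52 and 6.73, against 0.275 in TET2KD and 0.314 in WT, and Sppl2a, an intramembrane protease of endosomes, had 3.18 and 3.03, against 0.382 and 0.188. All 3 were read by a single probe, with carrying arrays high and no overlap. Pmaip1, the pro-apoptotic BH3 protein Noxa, had 4.45 and 5.89, against 0.877 in TET2KD and 0.260 in WT, a gap of 5.07-fold. Fdps, farnesyl diphosphate synthase of the mevalonate pathway, had a gap of 4.71-fold and Slc48a1, a heme transporter, of 4.68-fold. Cep85, Slc38a10, Zfp783, Sema6b, Ippk and Ccdc124 had gaps of 4.05- to 5.28-fold.

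The widest separations below, after Epx, began with Eya2, a transcriptional coactivator with phosphatase activity, which had 0.818 in the double mutant and 1.86 in JAK2V617F, against 11.4 in TET2KD and 12.0 in WT (gap 6.14-fold). Apoe, apolipoprotein E, had 2.16 and 2.41, against 12.0 in TET2KD and 10.1 in WT. Gprasp1, a sorting protein of G protein-coupled receptors, had 1.15 and 1.25, against 4.67 and 4.79. Within each side these 2 genes varied little, and the sides were 4.20- and 3.74-fold apart. Irf5, an interferon regulatory factor, was below by 3.71-fold, with TET2KD at 10.3 and WT at 1.85. Khdrbs3, Ubxn2b, Adcy6, Nwd1, Mylpf, Ypel2, Slc25a36 and Rnf166 had gaps of 3.52- to 5.54-fold.

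**Figure D5:**
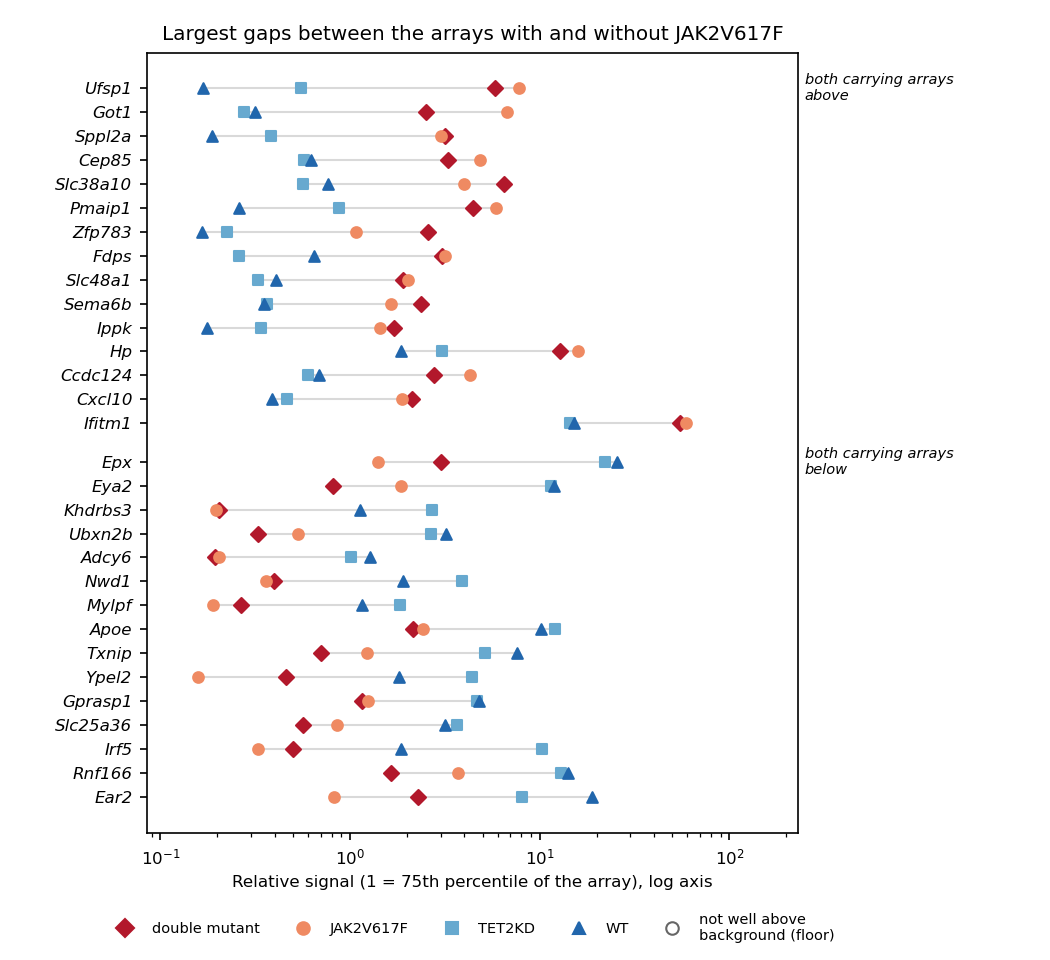
Relative signal on each array (horizontal log axis) of the 15 genes with the widest gap above and the 15 below, among genes whose every probe was well above background on all 4 arrays and whose gap was also 2-fold with normexp; diamonds are the double mutant, circles JAK2V617F, squares TET2KD and triangles WT. The gap between the nearest arrays of the 2 sides runs from 3.60-fold (Ifitm1) to 10.5-fold (Ufsp1) above and from 3.51-fold (Ear2) to 7.33-fold (Epx) below.

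In 5 genes each way, probes at least 500 bases apart were all past 2-fold on the same side. Above, these were Bphl, a hydrolase, with at least 17.6- and 2.76-fold; Mex3b, an RNA-binding protein, with at least 4.07- and 2.67-fold; F13a1 with at least 9.60- and 2.35-fold; Srbd1 with at least 2.47- and 2.32-fold; and Cxcl10. Below, they included Txnip, Bex1, Mmd and Ppp1r9a. Bex1 had 0.240 and 0.216 in the double mutant and JAK2V617F, against 2.67 in TET2KD and 3.41 in WT. Mmd, a membrane protein first described in monocytes, had gaps of 12.3-, 2.50- and 2.54-fold on 3 probes, the last 2 of which overlap. On each measured probe of Bex1 and Mmd, 1 carrying array was not well above background.

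Some genes were well above background on 1 side only. Chek2, the DNA damage checkpoint kinase, had 1.35 in the double mutant and 2.68 in JAK2V617F, against floors of 0.145 in TET2KD and 0.124 in WT, at least 14.2-fold higher. Pou5f2, Rpusd1, Mrvi1 and Gdf9 were at least 7.79- to 10.4-fold higher in the same way. Pogk, a DNA-binding protein derived from a pogo transposon, was at floors of 0.109 and 0.108 in the double mutant and JAK2V617F, against 2.95 in TET2KD and 2.07 in WT, at least 22.8-fold lower. Bgn, the matrix proteoglycan biglycan, was at least 18.0-fold lower, Dcaf12l1 20.6-fold, Rbm3os 11.8-fold, Tex45 8.84-fold and Tox3 8.65-fold. Each of these rested on 1 measured probe, and the bounds hold on the scale of the processed signal. With normexp the log2 differences were smaller, from 1.335 (Mrvi1) to 2.04 (Chek2) above and from -1.30 (Tex45) to -2.39 (Dcaf12l1) below. Pogk had -4.51 as reported, -2.32 with normexp and -2.41 with no filter on dim probes, since its other probe was at the floor on all 4 arrays.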

How the data were processed

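The arrays are Agilent 1-colour arrays with probe coordinates in mm9; their deposited intensity columns hold background-subtracted, detrended signal made by Agilent Feature Extraction 10.7.3.1, per the file headers; all 4 arrays lay on 1 slide in 1 scan session. Trizol extraction and NuGEN Ovation Pico amplification of the RNA are given in the labels' protocols. The deposited series matrix holds log2 values, which match the logged array signal shifted by 1 constant per array for all but 122 to 146 of 55681 probes (tolerance 0.001); its column medians were -2.60 in the double mutant and JAK2V617F, -2.63 in TET2KD and -2.64 in WT.

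Processed signals were taken to log2 minus the array's 75th percentile. Outlier spots (162 to 199 per array) were dropped, and no spot was saturated. Spots of a probe and then probes of a gene were averaged. Names came from a RefSeq table: 28026 probes by accession, 3418 by symbol and 295 by synonym, with 23942 unnamed. Of 30662 probes well above background on at least 2 arrays, 18458 had a gene. A probe without that flag on an array was set there to the lowest well-above-background signal, or its own if higher (the floor). Where a gene is "at least" so many fold higher or lower, the mean of the bright side was set against the mean of these floors. Other "at least" folds of named genes are gaps, with a probe of the dimmer side at the floor. limma 3.58.1 in R 4.3.3 fitted additive JAK2V617F and TET2KD terms, with 1 residual degree of freedom and Benjamini-Hochberg adjustment; the steps were tested on simulated data. Promoters came from RefSeq (GRCm38.p6) and were matched by symbol, for 10853 of the measured genes.

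The 35 gene lists and the naming rule were chosen with earlier results of these data known. Named were JAK-STAT members; the 15 widest gaps each way among genes measured on every array, with a 2-fold gap under normexp too; genes with distant probes past 2-fold; the 6 largest bounds each way; and list members past 2-fold. List members named with smaller gaps were chosen as examples after their values were seen. Unnamed gene models were left out, and some genes that the rule names are not reported here. Alternatives were normexp (offset 50), quantile, cyclic loess and median scaling, other filters and floors, the brightest probe, the series matrix, other thresholds, no TET2KD term, and each array left out.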

Additional observations from a re-analysis of the deposited data

Results flagged for a closer look

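Listed here are differences that pointed in opposite directions without and with the knock-down. Single genes were searched only among JAK-STAT genes, STAT5 targets and cytokine receptors, at 2-fold or more each way, and list medians among all lists. Over all genes, 331 were at least 2-fold higher without the knock-down and 2-fold lower with it, and 347 the other way round. None of these differences was tested, since each setting has 1 array a side. Socs7, an inhibitor of the SOCS family, had log2 differences of -1.22 for JAK2V617F minus WT and 1.07 for double mutant minus TET2KD, and Ifngr2, the second chain of the interferon gamma receptor, had -1.37 and 2.10 in the same order. The median of the JAK kinases and STAT factors was 0.422 for JAK2V617F minus WT and -0.375 for double mutant minus TET2KD. For cytokine receptors the medians were -0.328 and 0.467, and for apoptosis regulators -0.491 and 0.367, in the same order.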

How the results depend on the processing

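The medians of 18 of the 35 lists lay on both sides of 0 over the 4 analyses that each left out 1 array, among them STAT5 targets (-0.103 to 0.274), mature neutrophil genes (-0.676 to 0.197), cytokine receptors (-0.295 to 0.448), interferon response genes (-0.174 to 0.371) and ribosomal proteins (-0.211 to 0.075), so those lists have no settled direction. None of the 10 lists given with a range further on had a median on the other side of 0 in any alternative run. Between the settings without and with the knock-down, however, the medians of immediate early genes and JAK-STAT inhibitors changed sign. The counts of genes with a 2-fold gap (351 above, 335 below) were 82 and 78 with normexp, 185 and 195 with only probes well above background on all 4 arrays, and 101 and 111 at a 3-fold gap, where fewer genes can pass by construction; a 2-fold mean difference with any gap gave 1083 and 930. Leaving out 1 array, which compares fewer arrays, gave 906 to 1116 above and 723 to 1152 below. The S phase median of 0.247 was 0.165 with normexp, 0.168 with probes well above background on all 4 arrays, 0.154 with no filter on dim probes and 0.330 without the floor; the G2 and mitosis median of 0.83 was 0.653 with normexp; the cause was not tested. With each array left out in turn, the medians of those 10 lists ran from 0.878 to 1.31 (granulocyte and monocyte progenitors), -2.28 to -1.61 (mast cell, basophil and eosinophil), -0.701 to -0.26 (stem cell), 0.682 to 1.004 (G2 and mitosis), 0.203 to 0.507 (S phase), 0.231 to 0.691 (respiratory chain), 0.276 to 0.612 (nucleolar), -0.726 to -0.301 (MAPK feedback), -0.607 to -0.17 (immediate early) and 0.00 to 0.468 (JAK-STAT inhibitors). limma called 0 genes in every setting run. Of 225 values of the other list medians 14 moved, and of 1172 values of single genes 160 moved. Moved means shifted by more than the SD of the 2 differences, without and with the knock-down, so results whose differences disagree seldom count. These totals include settings that shift most values little, such as quantile scaling. With normexp many single genes moved, such as Socs2 (3.52 to 1.81) and Got1 (3.81 to 2.65), while Pmaip1 (3.42 to 2.36) did not count. The TET2KD term of the fit sets each JAK2V617F-carrying array against its partner of the same background; without that term limma also called 0 genes (smallest adjusted p 0.517, and 1141 genes at an unadjusted p under 0.05). Signals near background, where the floor sets the value, limit what dim genes can show.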

Other observations

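Lists not described above were mostly mixed, and the medians of the megakaryocyte, erythroid, endothelial and B cell lists changed sign when 1 array was left out. Megakaryocyte and platelet genes had 7 of 23 below and 2 above (30.4% and 8.7%, against 18.2% and 19.4% over all genes). Selp, P-selectin, was above by 2.51-fold and Gng11 below by 2.35-fold. Erythroid genes had 6 of 17 above and 1 below; Hba-a1, alpha globin, had 6.25 in the double mutant and 0.243 in JAK2V617F, against 17.5 in TET2KD and 1.16 in WT, so that both arrays with the knock-down were the high ones. Niche adhesion and homing genes had 7 of 21 above and 1 below, none of them by 2-fold. T and NK cell genes had 4 of 14 above and 0 below, led by Il2rb, the interleukin-2 receptor beta chain, with 1.80 in the double mutant and 0.949 in JAK2V617F, against 0.245 in TET2KD and a floor of 0.124 in WT. Pdgfrb, a receptor of stromal cells, was above by 2.996-fold, and Tie1, of endothelial cells, below by 3.50-fold with JAK2V617F at the floor. Hoxa9 was below by 1.36-fold and Hoxa10 above by 2.64-fold.

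Among the B cell and plasma cell genes, 3 plasma cell genes, chosen after their values were seen, were high on both arrays with the knock-down. Jchain, the joining chain of secreted antibodies, had 3.21 in the double mutant and 0.310 in JAK2V617F, against 4.63 in TET2KD and 0.687 in WT. Tnfrsf17 and Mzb1 were well above background only in the double mutant and TET2KD.

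Of 12200 measured probes with no gene name in the tables used here, both carrying arrays lay at least 2-fold above for 233 (1.91%) and at least 2-fold below for 308 (2.52%).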
